A study of Mus musculus with 8 samples.

Results

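Collagen genes were followed in whole abdominal mammary glands of female C57BL/6 mice, taken 6 weeks after 1 exposure to small extracellular vesicles (sEVs). The members are all protein-coding genes of the deposited count table whose mouse symbol is Col followed by a digit. This rule took 45 genes of 51789 in the table, and 44 of them encode collagen chains. The remaining gene, Col4a3bp, encodes a ceramide transporter named for a protein it was found with, and it was set aside. By structure the chains comprised 11 fibrillar, 6 type IV (basement membrane), 6 type VI (beaded filament), 9 fibril-associated, 4 transmembrane, 3 short-chain network and 2 multiplexin chains. The others were 1 anchoring fibril chain and 2 chains of no larger class.

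The sEVs came from AT3, a mouse mammary adenocarcinoma line that metastasizes, and were injected into the gland. In sEV-NORM glands the vesicles came from cells grown in normoxia, and in sEV-HYP glands the cells had been grown in hypoxia. In sEV-CTRL glands the injected material came from medium that no cells had conditioned, prepared by the same steps. The mice were wild type, their ages are not given in the sources used here, and all 3 groups received an injection. There were 3 sEV-CTRL, 3 sEV-NORM and 2 sEV-HYP libraries, so every statement about sEV-HYP rests on 2 glands. Nothing in the labels names the animal behind each library, so P values measure the spread between these libraries. All tumor vesicles came from 1 cell line, and the glands were taken at 1 time point.

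Collagens are secreted proteins in which chains wind around each other into a stiff helix. Types I, III and V assemble into the fibrils that give tissue its tensile strength, and fibril-associated collagens sit on the fibril surface. Type IV forms the sheet-like network of basement membranes, which in the mammary gland lies under the ducts, around capillaries and around each fat cell. Type VI forms beaded filaments close to cells and is abundant in fat. In the mammary gland fibroblasts make most of the fibrillar collagen. The genes of chains that share a helix are often active in the same cells.

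The libraries held 18194996 to 24622569 counts, and collagen chains took 0.303% to 0.462% of them. Counts were turned into CPM, which scales them to the size of each library, for comparing a gene between libraries, and into TPM, which also divides by gene length, for comparing genes. A count of 0 allows up to 3 counts in that library. Of the 44 chains, 36 held enough counts to be tested. All 6 mammary epithelial markers were detected in every library, with summed levels of 211 to 393 CPM. Markers of white adipocytes summed to 4727 to 9207 CPM. Skeletal muscle markers were far less even, at 596, 7130 and 2162 CPM in sEV-CTRL replicates 1 to 3, 2566, 9.84 and 1166 in sEV-NORM and 3951 and 11075 in sEV-HYP. All 8 muscle markers were without overlap higher in sEV-HYP than in sEV-NORM, beside 12.3% of all genes tested. The muscle markers had a median log2 fold change of 2.5, although none of the 8 reached an unadjusted P under 0.05. Fibroblast markers (Pdgfra, Pdgfrb, Dpt, Pi16, Dpp4, Clec3b, Mfap5 and Gsn) summed to 2207, 2809 and 3161 CPM in sEV-CTRL, 2565, 1337 and 2814 in sEV-NORM and 1404 and 2548 in sEV-HYP. Endothelial markers summed to 459 to 630 CPM, pericyte and smooth muscle markers to 458 to 741, peripheral nerve markers to 269 to 547 and skin keratinocyte markers to 5.42 to 45.6. In whole tissue, more cells of a type and more RNA per cell cannot be told apart.

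The promoters of the collagen genes that passed an unadjusted P under 0.05 are shown here because the results below turn on these genes. Each is the 250 bases before the annotated start, from RefSeq on GRCm38.p6, read in the direction of the gene. Col3a1 lies on the plus strand (chr1:45311288-45311537), as do Col5a1 (chr2:27886175-27886424) and Col20a1 (chr2:180986285-180986534). Col13a1 lies on the minus strand (chr10:61979109-61979358). Capitals mark matches, on either strand, to 3 motifs. The motif TATAAA has the letters of the box bound by the general transcription machinery. The motif GGGCGG is the box bound by Sp1. The motif ACGTG is the core of the element bound by hypoxia-inducible factors. The motif CCAAT was searched as well and had no match in these windows.
Col3a1: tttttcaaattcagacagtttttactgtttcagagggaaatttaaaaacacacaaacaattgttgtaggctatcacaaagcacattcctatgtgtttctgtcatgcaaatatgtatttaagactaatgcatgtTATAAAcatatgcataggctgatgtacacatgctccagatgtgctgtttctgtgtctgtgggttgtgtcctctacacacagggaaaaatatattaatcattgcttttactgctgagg
Col5a1: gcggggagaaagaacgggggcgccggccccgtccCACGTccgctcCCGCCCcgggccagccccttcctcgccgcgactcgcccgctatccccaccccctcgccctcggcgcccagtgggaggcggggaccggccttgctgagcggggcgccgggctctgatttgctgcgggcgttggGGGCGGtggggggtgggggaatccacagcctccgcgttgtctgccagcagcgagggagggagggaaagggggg
Col13a1: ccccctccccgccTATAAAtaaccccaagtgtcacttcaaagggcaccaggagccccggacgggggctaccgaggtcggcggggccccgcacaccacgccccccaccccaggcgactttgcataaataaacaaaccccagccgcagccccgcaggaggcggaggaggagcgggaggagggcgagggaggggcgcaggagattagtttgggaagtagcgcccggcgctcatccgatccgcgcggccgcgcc
Col20a1: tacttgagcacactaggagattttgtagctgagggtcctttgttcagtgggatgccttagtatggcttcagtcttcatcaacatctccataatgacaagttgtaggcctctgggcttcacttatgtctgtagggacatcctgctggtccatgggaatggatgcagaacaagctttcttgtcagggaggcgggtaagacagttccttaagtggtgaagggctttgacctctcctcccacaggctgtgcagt

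The Col3a1 window held 1 TATAAA and had the lowest GC content of the collagen promoters, 35.2%. The Col5a1 window had the highest, 76.4%, and held 2 matches to GGGCGG and 1 to ACGTG. The Col13a1 window held 1 TATAAA, and the Col20a1 window held none of the 4 motifs. The promoter table matched 35 of the 44 collagen genes with 38 promoters, and Col5a2 and Col1a1 were among those without an entry. Over the 38 collagen promoters the median GC content was 59.0%, against 52.4% over all 32851 promoters in the table. A match to GGGCGG was found in 57.9% of collagen promoters and in 32.7% of all. TATAAA was found in 13.2% against 12.4%, CCAAT in 34.2% against 33.8%, and ACGTG in 13.2% against 16.6%. These are matches of letters in a window, and no binding was measured.

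Per length, fibrillar chains dominated the gland. Their summed level had a median of 643.9 TPM over the 8 libraries, against 158 for type IV, 144 for type VI, 76.3 for multiplexins and 22.1 for fibril-associated chains. The transmembrane, short-chain and remaining classes each stayed below 10 TPM in every library. Col3a1, the single chain of type III collagen, was the highest of all collagen genes, with a median of 329 TPM. It was followed by Col1a2 (118 TPM), Col4a1 (105 TPM) and Col1a1 (102 TPM), whose ranges over libraries overlapped. Next came Col6a1 with 81.3, Col15a1 with 71.3 and Col5a2 with 58.7 TPM. The 10 highest genes held 91.9% of the summed collagen TPM, as a mean over the 8 libraries. The first 4 ranks were the same when the longest transcript was used as the length. Only 25 of the 44 chains had a median above 1 TPM.

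**Figure D1:**
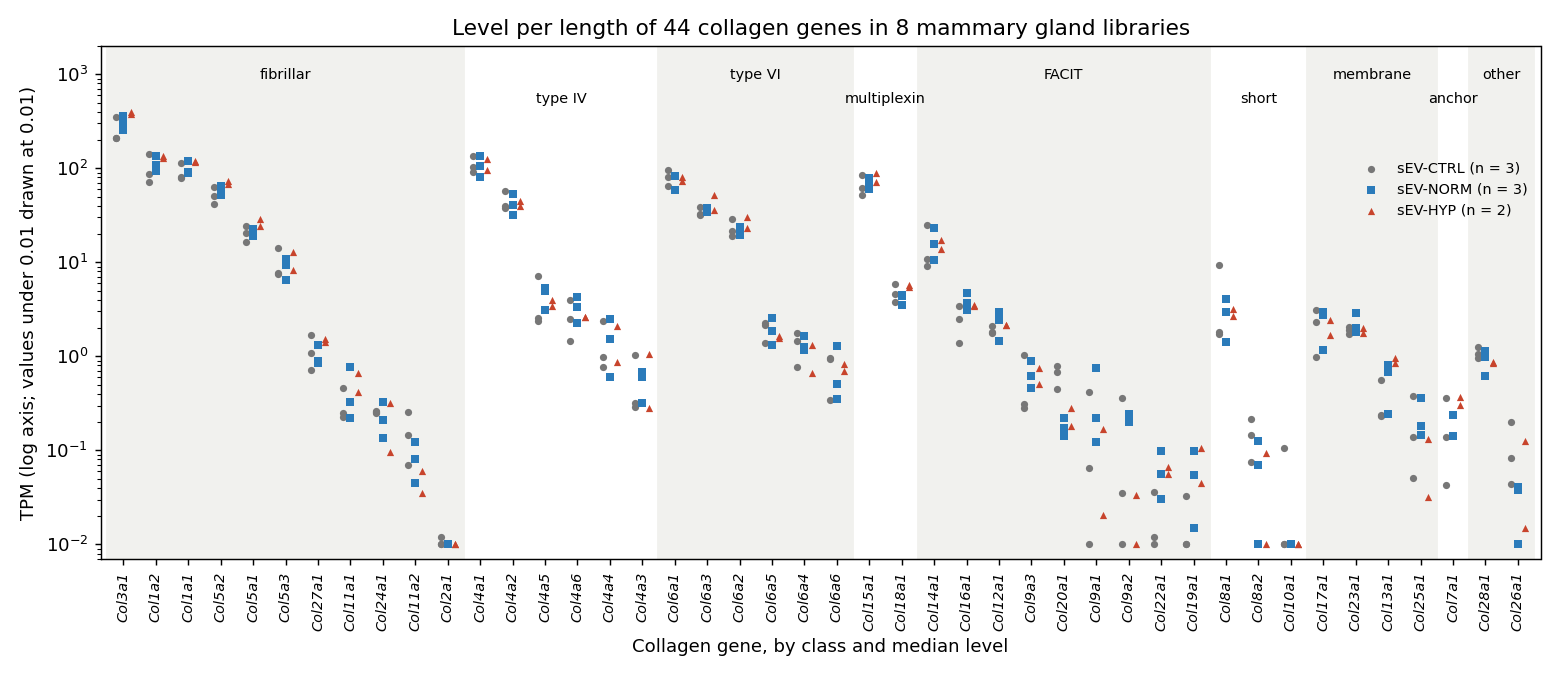
TPM (log axis) of 44 collagen genes, ordered by class and by median level, with 1 point for each library of sEV-CTRL (n = 3), sEV-NORM (n = 3) and sEV-HYP (n = 2). Col3a1 stands highest, and within types IV and VI the 2 or 3 leading chains stand well above the rest.

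At the other end, 8 chains were too low to test. The highest count in any library was 16 for Col11a2, 15 for Col26a1, 10 for Col9a2, 8 for Col22a1 and for Col8a2, and 6 for Col19a1. Col10a1, the collagen of hypertrophic cartilage, had at most 3 counts, and Col2a1, the main collagen of cartilage, at most 1. The 4 cartilage markers Acan, Matn1, Comp and Chad summed to less than 1 CPM in every library.

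The proportions of chains that share a helix were steadiest for types IV and V, less so for types I and VI and not steady for type VIII. Col1a1 and Col1a2 make type I collagen, and the level of Col1a1 per length was 0.808 to 1.09 times that of Col1a2 in the 8 libraries, with a median of 0.895. The same ratio had a median of 0.427 when the longest transcript replaced all exons as the length, since the annotated exons of Col1a2 span 12426 bases and its longest transcript 5348. The ratio of Col4a1 to Col4a2 ran from 2.32 to 2.82 with a median of 2.57. Col5a1 stood at 0.347 to 0.408 times Col5a2, and Col6a1 at 2.71 to 3.80 times Col6a2. For the ratio of Col6a1 to Col6a2 both sEV-HYP libraries, at 3.11 and 2.71, stood below all but 1 of the other 6. Col6a3 stood at 1.14 to 1.83 times Col6a2, with the lowest ratio in sEV-CTRL replicate 3. For type VIII the ratio of Col8a1 to Col8a2 was 11.7, 126 and 8.38 in sEV-CTRL, 32.3 and 20.4 in sEV-NORM replicates 1 and 2 and 28.9 in sEV-HYP replicate 1, with Col8a2 at no more than 8 counts in any library and at 0 in the other 2. Since the choice of length moved the type I ratio by more than its spread over libraries, the absolute ratios cannot be read from these values.

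Across the 8 libraries, type I and type III genes moved together, as did the 2 main type IV genes, whose levels did not follow those of Col1a1. Type IV was not set against type VI in these tests. Log2 CPM of Col1a1 correlated with that of Col1a2 (r = 0.93, adjusted exact permutation P = 0.00675; rho = 0.86, adjusted exact permutation P = 0.0286). It also correlated with that of Col3a1 (r = 0.93, adjusted exact permutation P = 0.00258; rho = 0.98, adjusted exact permutation P = 0.00317). For Col5a1 the values were r = 0.81 (adjusted exact permutation P = 0.0240) and rho = 0.83 (adjusted exact permutation P = 0.0308). Between Col1a1 and Col4a1 they were r = -0.10 (adjusted exact permutation P = 0.962) and rho = -0.19 (adjusted exact permutation P = 0.886). Between Col1a1 and Col6a1 they were r = 0.05 (adjusted exact permutation P = 0.962) and rho = 0.10 (adjusted exact permutation P = 0.935). Col1a1 and Serpinh1, which encodes the collagen chaperone HSP47, had r = 0.02 (adjusted exact permutation P = 0.962) and rho = 0.05 (adjusted exact permutation P = 0.935). Col4a1 and Col4a2, which lie head to head on chromosome 8 and share 22 exon bases on opposite strands, had r = 0.94 (adjusted exact permutation P = 0.00258) and rho = 0.88 (adjusted exact permutation P = 0.0286). Col6a1 and Col6a2 had r = 0.78 (adjusted exact permutation P = 0.0158) and rho = 0.81 (adjusted exact permutation P = 0.0348).

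These 8 two-sided tests were adjusted together by the Benjamini-Hochberg method, and their unadjusted P values were 0.00253, 0.000595, 0.0150, 0.808, 0.907, 0.962, 0.000645 and 0.00789 for r and 0.0107, 0.000397, 0.0154, 0.665, 0.840, 0.935, 0.00724 and 0.0218 for rho, in the order given. Without the 2 libraries farthest from the median of the first gene, r was 0.91, 0.86 and 0.63 for Col1a1 with Col1a2, Col3a1 and Col5a1, and -0.27, -0.003 and -0.50 with Col4a1, Col6a1 and Serpinh1. It was 0.86 for Col4a1 with Col4a2 and 0.56 for Col6a1 with Col6a2, so this last relation rested in part on those libraries. After the mean of each group was removed, r was 0.90, 0.87 and 0.66 for Col1a1 with Col1a2, Col3a1 and Col5a1, and 0.95 and 0.86 for the type IV and type VI pairs. It was then -0.20, 0.09 and -0.46 for Col1a1 with Col4a1, Col6a1 and Serpinh1. The libraries share the depth scaling and the mix of cells in the gland, and pooling 3 groups is part of the first values.

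**Figure D2:**
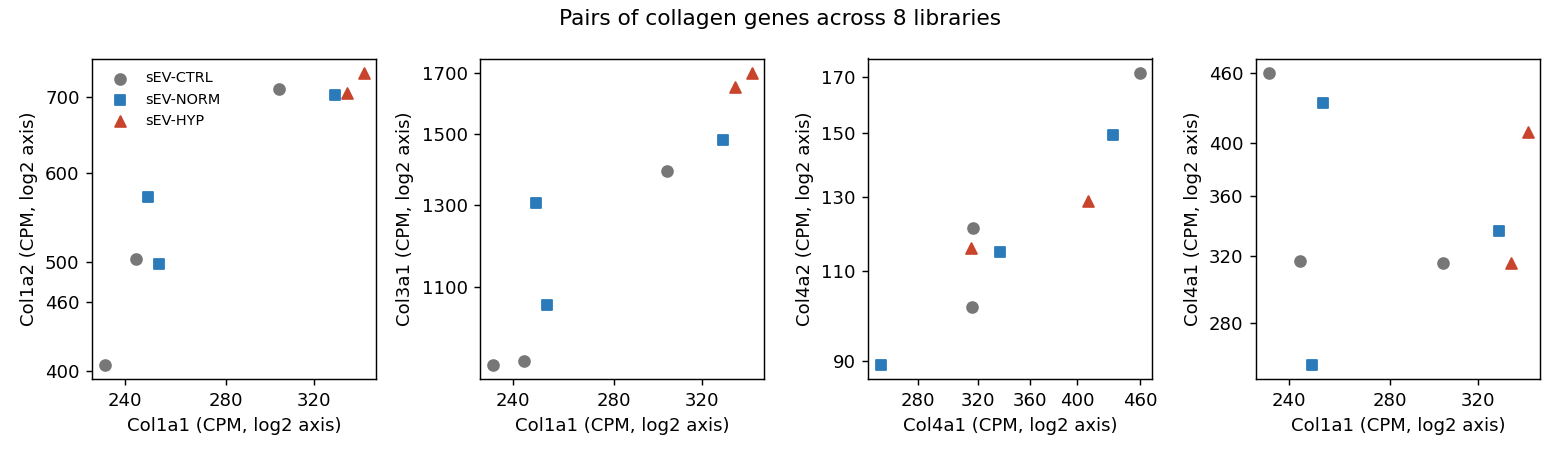
CPM (log2 axes) of 4 pairs of collagen genes, with 1 point for each of the 8 libraries. Col1a1 rises with Col1a2 and Col3a1, Col4a1 with Col4a2, and the Col1a1 and Col4a1 panel shows no such line.

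The first comparison, sEV-NORM with sEV-CTRL, asks whether vesicles of normoxic tumor cells leave a trace in collagen expression. Col20a1, a fibril-associated chain, was lower in sEV-NORM, and no other chain reached an unadjusted P under 0.05. Col20a1 (chr2, 180986535 to 181018363, plus strand) had 1.07, 1.41 and 1.86 CPM in sEV-CTRL, 0.483, 0.310 and 0.378 in sEV-NORM, and 0.412 and 0.642 in sEV-HYP. All 5 libraries of the other groups were below the lowest control. Behind these values stood 21, 31 and 34 counts in sEV-CTRL and 7 to 12 in the other libraries. The log2 fold change was -1.87 ± 0.46 (SE) with an unadjusted P of 0.00276, and the adjusted P was 1 (edgeR's quasi-likelihood test with Benjamini-Hochberg adjustment over 17858 genes). Col20a1 shares 79 of its exon bases with an annotated overlapping transcript on the same strand, so a part of its reads could belong to that transcript.

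This was 1 of 36 chains tested (2.78%), against 1.62% of all genes tested in this comparison, of which 0.89% were higher and 0.734% lower. It was also the only chain whose groups did not overlap, with 0 chains higher, against 2.69% of all genes higher and 2.17% lower. The median log2 fold change of the 36 chains was 0.05, with 19 above 0 (52.8%) and 17 below, and that of all genes was -0.0008 with 49.8% above 0. The 9 fibrillar chains had a median of 0.09, the 6 type IV chains 0.04 and the 6 type VI chains -0.10, and all 6 type VI estimates were below 0. Each type VI estimate was smaller than its SE, and the smallest unadjusted P of the class was 0.440. Col16a1, which lies on fibrils, had the second smallest unadjusted P (0.0702, log2 fold change 0.61 ± 0.30). Without sEV-CTRL replicate 2, chains past the threshold numbered 4, as Col16a1, Col4a5 and Col9a1 were added, while 5.75% of all genes passed in that fit. Without sEV-NORM replicate 1 they numbered 2, as Col12a1 was added, while 1.91% of all genes passed.

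The second comparison, sEV-HYP with sEV-NORM, sets vesicles of tumor cells in hypoxia against vesicles of the same line in normoxia. The muscle markers given above also separated these 2 groups of glands. Of the 3 classes with the highest summed level, fibrillar chains had the highest median log2 fold change (0.35), while the 2 multiplexins had a median of 0.37 and the single anchoring fibril gene, Col7a1, one value of 0.74 at 4 to 33 counts per library. Col3a1 had 1061, 1304 and 1483 CPM in sEV-NORM and 1653 and 1699 in sEV-HYP. Col1a1 had 253, 249 and 330 in sEV-NORM and 336 and 345 in sEV-HYP, and Col1a2 had 497, 571 and 703 against 707 and 736. Both sEV-HYP libraries were above all 3 sEV-NORM libraries for each of these genes, but for Col1a1 and Col1a2 sEV-NORM replicate 3 nearly reached them. The log2 fold changes were 0.39 ± 0.24, 0.30 ± 0.19 and 0.29 ± 0.26, and none passed the test (unadjusted P = 0.139, 0.159 and 0.288 by edgeR).

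Col5a1 was the only chain with an unadjusted P under 0.05 in this comparison. It encodes a chain of type V collagen, which nucleates type I fibrils. Col5a1 (chr2, 27886425 to 28039514, plus strand) had 70.4, 69.0 and 81.2 CPM in sEV-NORM and 91.4 and 107 in sEV-HYP, with 65.1, 83.8 and 79.5 in sEV-CTRL. Its log2 fold change was 0.43 ± 0.17, with an unadjusted P of 0.0290 and an adjusted P of 1 (edgeR with Benjamini-Hochberg adjustment). The unadjusted P rose above 0.05 without sEV-NORM replicate 1 (log2 fold change 0.40), sEV-NORM replicate 2 (0.39) or sEV-HYP replicate 2 (0.31). Its partner Col5a2 had 211, 223 and 264 CPM in sEV-NORM and 285 and 305 in sEV-HYP, a log2 fold change of 0.35 ± 0.18 with an unadjusted P of 0.0846.

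The 1 chain of 36 is 2.78%, below the 3.95% of all genes that passed in this comparison (2.25% higher and 1.7% lower), so the count of calls does not set the collagens apart. By order of the libraries, 11 of the 36 chains (30.6%) were without overlap higher in sEV-HYP and 1 (2.78%) lower, against 12.3% higher and 10.5% lower over all genes. Of the 11, 6 were fibrillar (Col1a1, Col1a2, Col3a1, Col5a1, Col5a2 and Col27a1), 2 were type VI (Col6a2 and Col6a3), and the others were Col18a1, Col13a1 and Col7a1. The chain without overlap lower was Col25a1, a transmembrane collagen, with 0.798 to 1.97 CPM in sEV-NORM and 0.183 and 0.749 in sEV-HYP. The median log2 fold change was 0.10 over the 36 chains, 0.35 over the 9 fibrillar chains, 0.01 over type IV and 0.13 over type VI, against -0.02 over all genes. In this comparison 8 of 9 fibrillar estimates were above 0, beside 47% of all genes. The median over the 36 chains ranged from -0.028 to 0.30 when 1 library was left out, and it was below 0 only without sEV-HYP replicate 2. Genes of 1 fibril system move together across libraries, as the correlations show, so the fibrillar chains do not count as separate evidence.

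**Figure D3:**
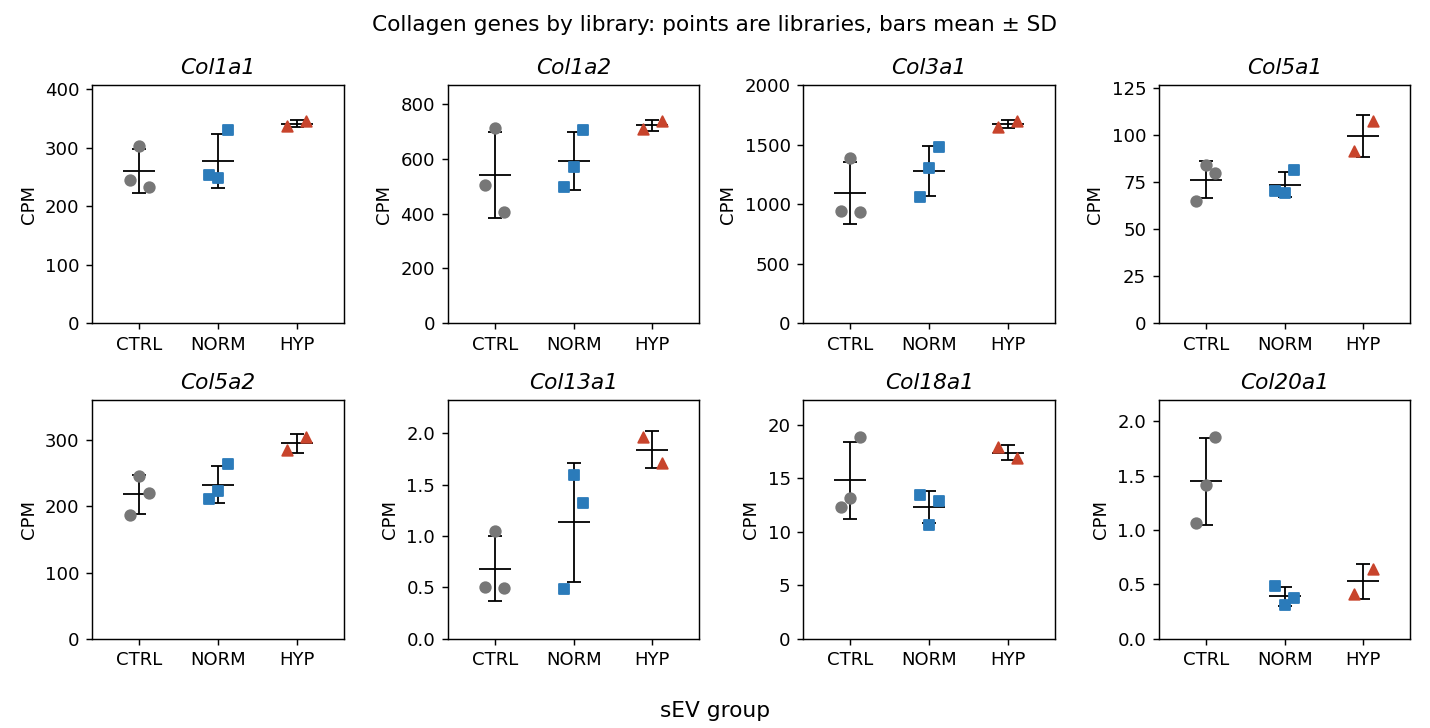
CPM of 8 collagen genes in sEV-CTRL (n = 3), sEV-NORM (n = 3) and sEV-HYP (n = 2), with points for libraries and bars for the mean ± SD. Col1a1, Col3a1, Col5a1 and Col5a2 are higher in both sEV-HYP libraries than in all others, for Col1a2 sEV-CTRL replicate 2 lies between them, Col18a1 is above sEV-NORM but not above all controls, and Col20a1 is highest in sEV-CTRL.

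The third comparison, sEV-HYP with sEV-CTRL, gave the most chains past the threshold: 4 were higher (11.1%) and 1 was lower (2.78%), against 1.39% and 1.06% of all genes. In both directions these 5 are 13.9% of the 36, beside 2.45% of all genes. This comparison shares its sEV-HYP libraries with the second comparison and its controls with the first, so the 3 are not independent. Col3a1 (chr1, 45311538 to 45349706, plus strand) had 946, 1393 and 939 CPM in sEV-CTRL, and both sEV-HYP libraries were above these. Its log2 fold change was 0.62 ± 0.24 with an unadjusted P of 0.0283. Of its exon bases 141 are shared with an annotated miRNA gene on the same strand. Col5a2 (chr1, 45374321 to 45503282, minus strand), with 187, 246 and 220 CPM in sEV-CTRL, had a log2 fold change of 0.44 ± 0.18 with an unadjusted P of 0.0361. Col5a1 had one of 0.38 ± 0.17 with an unadjusted P of 0.0478.

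Col13a1 (chr10, 61838236 to 61979108, minus strand), a transmembrane collagen known from the neuromuscular junction, had 0.508, 1.05 and 0.492 CPM in sEV-CTRL. It had 0.483, 1.60 and 1.32 in sEV-NORM and 1.97 and 1.71 in sEV-HYP, so the sEV-HYP libraries were highest and sEV-NORM spread from the control level to near theirs. Its log2 fold change against sEV-CTRL was 1.41 ± 0.58 with an unadjusted P of 0.0373, at 9 to 43 counts per library. The muscle markers given above were also higher in both sEV-HYP libraries than in all sEV-NORM libraries. Against sEV-CTRL all 8 muscle estimates were above 0, beside 47.5% of all genes, with a median log2 fold change of 1.06. In that comparison 0 of the 8 were without overlap higher, beside 6.7% of all genes. The part of muscle in the Col13a1 values was not tested. Col20a1 was lower than in sEV-CTRL, with a log2 fold change of -1.45 ± 0.52 and an unadjusted P of 0.0209. All 5 adjusted P values were 1 (edgeR with Benjamini-Hochberg adjustment).

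Col1a1, with 244, 304 and 233 CPM in sEV-CTRL, had a log2 fold change of 0.39 ± 0.19 and an unadjusted P of 0.0755, and Col1a2, with 502, 712 and 405, one of 0.42 ± 0.26 and an unadjusted P of 0.135. These 2 genes, Col3a1 and Col5a2 had their highest control value in sEV-CTRL replicate 2. That library decided much of this comparison. Without it 9 chains passed, as Col1a1, Col1a2, Col16a1 and Col7a1 were added, while the share of all genes that passed rose from 2.45% to 8.32%, and the median log2 fold change rose from 0.11 to 0.40. Without sEV-CTRL replicate 1 or without sEV-HYP replicate 2 only Col20a1 passed, without sEV-CTRL replicate 3 only Col6a2, and without sEV-HYP replicate 1 only Col6a3. The median turned to -0.037 when sEV-CTRL replicate 1 was left out, and to -0.026 when sEV-HYP replicate 2 was. With edgeR on only these groups Col3a1, Col5a1 and Col5a2 no longer passed, and 2 chains were left, beside 1.74% of all genes. Leaving out sEV-NORM replicate 3, which belongs to neither group and only adds to the estimate of spread, left 3 (Col20a1, Col3a1 and Col5a2). In that fit 1.92% of all genes passed.

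The median of the 36 chains was 0.11 with 22 above 0 (61.1%), against -0.02 and 47.5% over all genes. By class it was 0.39 for fibrillar, 0.003 for type IV and -0.01 for type VI chains. Without overlap, 8 chains were higher in sEV-HYP (22.2%) and 2 lower (5.56%), against 6.7% and 6.08% of all genes. The 8 were Col1a1, Col3a1, Col5a1, Col5a2, Col6a3, Col12a1, Col16a1 and Col13a1, and the 2 were Col20a1 and Col28a1. For Col6a3, sEV-HYP replicate 2 at 272 CPM stood apart from the other 7 libraries at 173 to 192. For Col12a1 the sEV-HYP libraries, at 14.5 and 14.6 CPM, were above 12.4, 12.9 and 12.6 in sEV-CTRL by little.

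**Figure D4:**
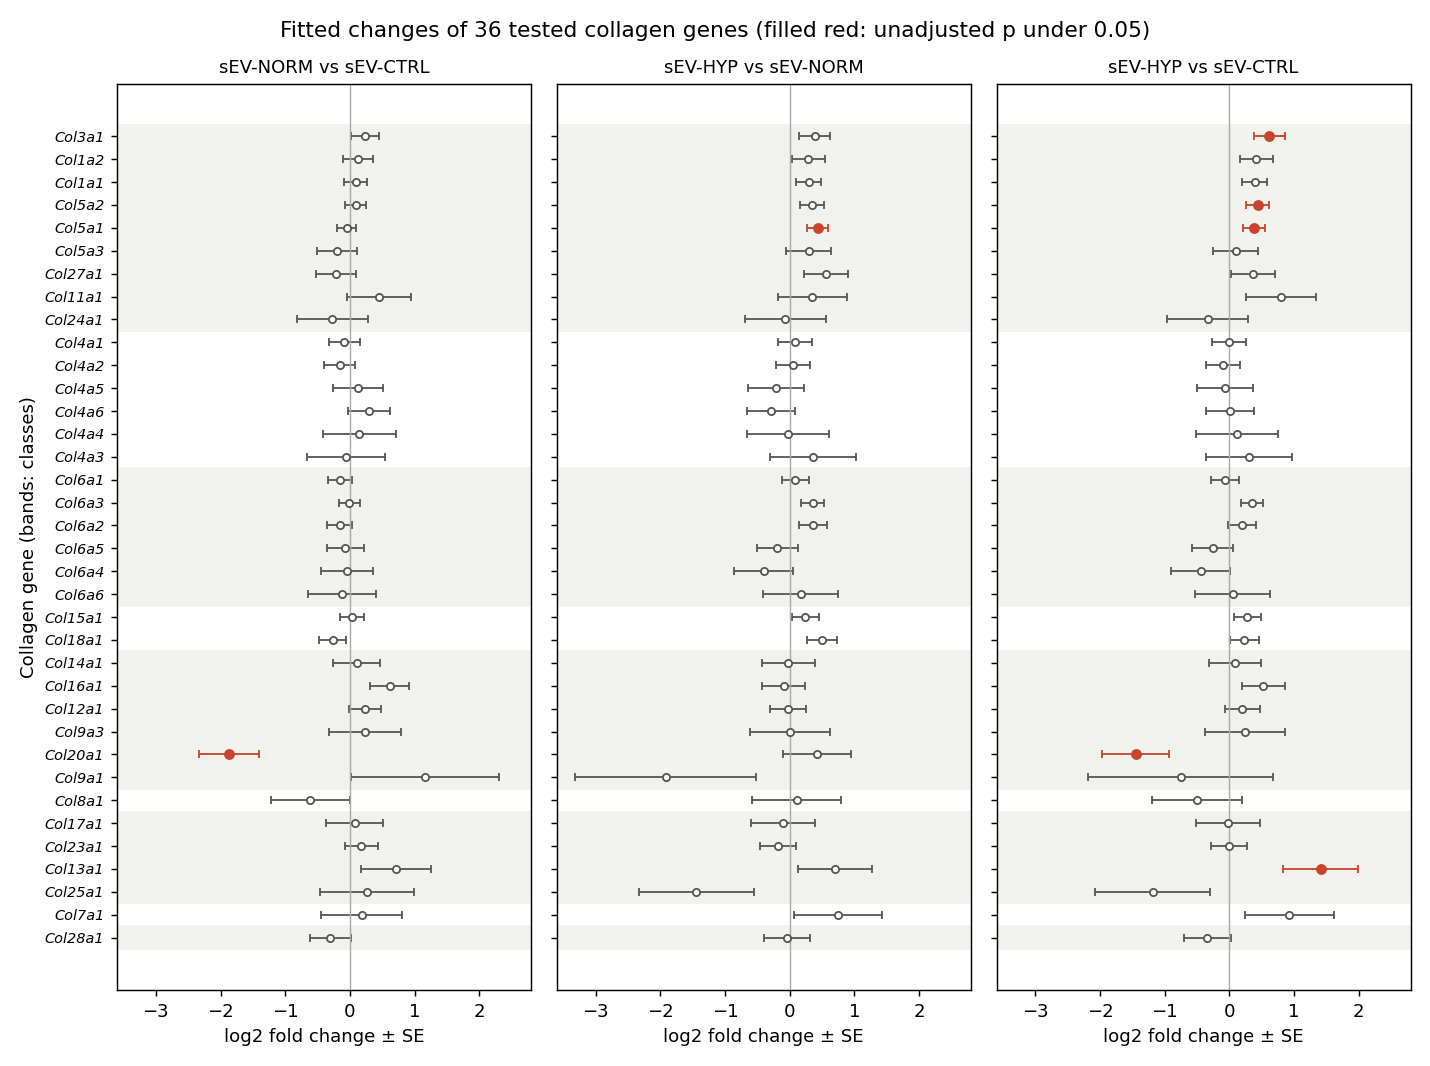
Fitted log2 fold changes ± SE of the 36 tested collagen genes in the 3 comparisons, in bands by class, with filled red points for an unadjusted P under 0.05. In both sEV-HYP panels the fibrillar band lies mostly to the right of 0, and the type IV band lies around 0.

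Summed over the class, fibrillar genes stood at 1979, 2772 and 1927 CPM in sEV-CTRL, 2131, 2443 and 2899 in sEV-NORM and 3108 and 3244 in sEV-HYP. The sEV-HYP libraries were highest, and the nearest library of another group was sEV-NORM replicate 3. The summed fibroblast markers had another order. In sEV-HYP replicate 1 they stood at 1404 CPM beside 3108 CPM of fibrillar collagen, and in sEV-CTRL replicate 3 at 3161 beside 1927. The sums lay closer in other libraries, at 2814 beside 2899 in sEV-NORM replicate 3 and 2207 beside 1979 in sEV-CTRL replicate 1. In sEV-HYP replicate 2 they were 2548 and 3244. The relation of the sums across libraries was not tested. None of the 8 fibroblast markers passed the test in either sEV-HYP comparison, with medians of -0.06 against sEV-NORM and -0.14 against sEV-CTRL. All 4 pericyte and smooth muscle markers had estimates above 0 against sEV-NORM, with a median of 0.32 and 2 of them without overlap higher. All 4 peripheral nerve markers did too, with a median of 0.31 and 1 without overlap. Over all genes, 47% of estimates against sEV-NORM were above 0 and 12.3% were without overlap higher. None of these 8 markers passed, and against sEV-CTRL their medians were 0.06 and -0.11. The part of fibroblasts, muscle, vessel wall, nerve or other tissue in the fibrillar difference was not tested.

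**Figure D5:**
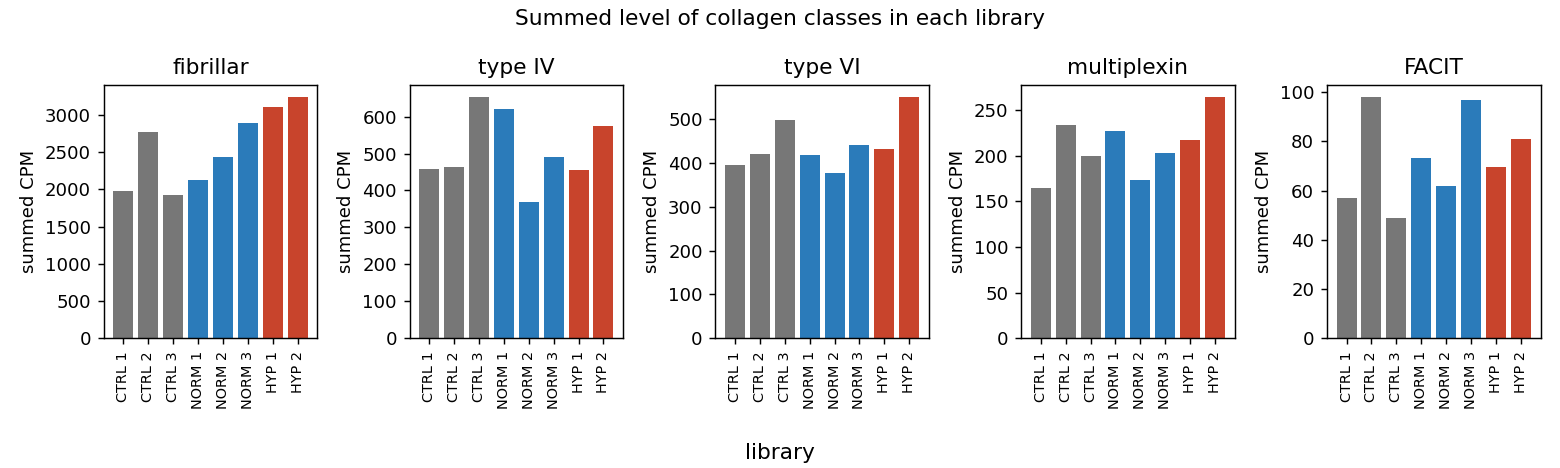
Summed CPM of 5 collagen classes in each of the 8 libraries, on axes that start at 0. Fibrillar sums are highest in both sEV-HYP libraries, and type IV sums are highest in sEV-CTRL replicate 3 and sEV-NORM replicate 1.

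Basement membrane collagen showed no such order. Col4a1 had 317, 316 and 460 CPM in sEV-CTRL, 433, 258 and 336 in sEV-NORM and 316 and 409 in sEV-HYP. Col4a2 had 121, 102 and 171, then 149, 89.3 and 115, then 116 and 129. The 3 groups overlapped for both genes, and the smallest unadjusted P of the 6 type IV chains over the 3 comparisons was 0.396. Col4a3 to Col4a6, the chains of more specialized basement membranes, were lower per length and varied 2.67-fold to 4.08-fold over libraries, against 1.78-fold for Col4a1. Their overlapping groups and the spread between libraries allow no difference to be read, and Col4a3 had only 24 to 93 counts per library.

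Of the type VI chains, Col6a1 had 131, 145 and 190 CPM in sEV-CTRL, 156, 110 and 153 in sEV-NORM and 140 and 157 in sEV-HYP, and the groups overlapped. Col6a2 had 73.1, 73.5 and 109 CPM in sEV-CTRL, 77.9, 68.9 and 82.7 in sEV-NORM and 85.5 and 110 in sEV-HYP. Col6a3 had 178, 189 and 180, then 173, 181 and 190, then 192 and 272. Against sEV-NORM the log2 fold changes were 0.36 ± 0.22 for Col6a2 and 0.36 ± 0.17 for Col6a3, with unadjusted P values of 0.132 and 0.0720. The later paralogs Col6a4, Col6a5 and Col6a6 had 1.37 to 10.2 CPM, and none passed the test.

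The multiplexins Col15a1 and Col18a1 carry a fragment at their end that can be released as an inhibitor of vessel growth, endostatin in the case of Col18a1. Col15a1 had 152, 221 and 181 CPM in sEV-CTRL, 214, 163 and 191 in sEV-NORM and 200 and 248 in sEV-HYP, so the groups overlapped. Col18a1 had 12.3, 13.1 and 18.9, then 13.4, 10.6 and 12.8, then 17.9 and 16.9. Against sEV-NORM its log2 fold change was 0.50 ± 0.23 with an unadjusted P of 0.0562, the second smallest among the chains. Against sEV-CTRL, where replicate 3 was the highest of all, it was 0.23 ± 0.23.

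No leading member of the remaining classes passed the test in any comparison. Col14a1, the highest fibril-associated chain, had 35.0, 71.0 and 29.5 CPM in sEV-CTRL, 46.4, 31.8 and 67.9 in sEV-NORM and 43.0 and 53.2 in sEV-HYP. Col8a1, a network collagen of vessel walls, had 30.1 CPM in sEV-CTRL replicate 2 and 4.74 to 13.6 in the other 7 libraries. Its partner Col8a2 was at a count of 0 in 2 libraries. Col17a1, the transmembrane collagen of hemidesmosomes in basal epithelium, had 2.74, 7.57 and 6.40, then 7.56, 3.01 and 7.0, then 4.49 and 6.48. Col7a1, which anchors basement membranes, had 0.203, 1.5 and 0.657, then 1.05, 0.621 and 1.04, then 1.37 and 1.66 CPM at 4 to 33 counts. Col28a1 had 2.18, 2.51 and 2.35, then 1.29, 2.39 and 2.03, then 1.83 and 1.87. Among the 36 tested chains, sEV-HYP replicate 2 was the highest library for 11 and sEV-NORM replicate 2 the lowest for 11.

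The machinery that makes, processes and binds collagen was read from 8 lists of 96 genes in all, of which 92 were tested. No gene of these lists passed in sEV-NORM against sEV-CTRL. Against sEV-NORM, 5 genes were higher in sEV-HYP (5.43%, beside 2.25% of all genes) and none was lower. Of the 12 folding and secretion genes 3 passed and 11 estimates were above 0 (47% over all genes), with a median log2 fold change of 0.20. They were Tmem38b, an ion channel of the endoplasmic reticulum (0.69 ± 0.23, unadjusted P = 0.0144), Sec23a, a coat protein of secretory vesicles (0.53 ± 0.20, unadjusted P = 0.0268), and Creb3l1, a transcription factor that drives collagen secretion (0.55 ± 0.22, unadjusted P = 0.0326).

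Tmem38b had 14.4, 10.8 and 15.7 CPM in sEV-NORM and 20.8 and 23.4 in sEV-HYP, with 13.2, 19.4 and 17.8 in sEV-CTRL. Creb3l1 had 9.33, 9.93 and 10.1 CPM in sEV-NORM and 12.5 and 16.1 in sEV-HYP, with 10.1, 12.7 and 9.08 in sEV-CTRL. Sec23a had 58.5, 63.1 and 63.9 in sEV-NORM and 78.2 and 100.2 in sEV-HYP, but sEV-CTRL replicate 2 reached 78.6. For these genes sEV-HYP was above sEV-NORM without overlap, and the controls overlapped with sEV-NORM in each and with sEV-HYP for Creb3l1 and Sec23a.

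Of the 6 crosslinking genes, Loxl1, a lysyl oxidase, passed against sEV-NORM (0.54 ± 0.23, unadjusted P = 0.0405). It had 33.7, 36.8 and 49.3 CPM in sEV-NORM and 49.0 and 67.0 in sEV-HYP, so these groups overlapped. Smad3, which carries TGF-beta signals to the nucleus, was the 1 of 13 genes of that pathway that passed. It had 34.5, 38.4 and 30.0 CPM in sEV-CTRL, 30.8, 33.9 and 32.4 in sEV-NORM and 39.1 and 52.2 in sEV-HYP. The sEV-HYP libraries were above both other groups, by a log2 fold change of 0.50 ± 0.18 from sEV-NORM (unadjusted P = 0.0221) and of 0.41 ± 0.18 from sEV-CTRL (unadjusted P = 0.0483). It was the only gene of the 92 to pass against sEV-CTRL (1.09%, beside 1.39% of all genes higher). All adjusted P values of these lists were 1 (edgeR with Benjamini-Hochberg adjustment).

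None of the 15 prolyl and lysyl modification genes, 7 tested propeptide removal genes, 15 fibril-binding proteoglycans and glycoproteins, 15 laminins, nidogens and perlecan or 9 tested collagen receptors passed in any comparison. Against sEV-NORM their medians were 0.04, 0.02, -0.01, 0.06 and 0.13. The highest member of each list per length was Sparc, a collagen-binding glycoprotein placed with folding and secretion (819 TPM), Dcn, the fibril-binding proteoglycan decorin (797 TPM), Nid1, which links laminin to type IV collagen (202 TPM), and P4hb, a subunit of prolyl hydroxylase (176 TPM). The others were the receptor subunit Itgb1 (143 TPM), Tgfbr2 (87.8 TPM), the crosslinking enzyme Lox (59.0 TPM) and Pcolce2, an enhancer of propeptide removal (31.4 TPM).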

How the data were processed

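RNA of 8 mammary glands was sequenced after poly(A) selection with a stranded kit. The authors aligned reads with STAR to mm10 and used RSEM 1.2.12 to make expected counts for the genes of Ensembl 89. The deposited expected counts are whole numbers, how they were rounded is not given in the sources used here, nor is whether strand was used in counting. No normalization had been applied. Genes without a symbol held 0.0389% of counts. Symbols, positions and lengths came from GENCODE M21 on GRCm38. TPM used the union of a gene's exons.

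Differences were tested with edgeR 4.0.16 under R 4.3.3 by its two-sided quasi-likelihood F-test, in 1 model of 3 groups with 5 residual degrees of freedom, after TMM scaling and a filterByExpr minimum of 10 counts, and P values were adjusted by the Benjamini-Hochberg method over 17858 genes. DESeq2 1.42.0, other filters, a replicate block and leaving out libraries were alternatives. An exact permutation test was used for correlations between genes, on log2 CPM without a prior count. Correlations between libraries used log2 CPM with a prior count of 2. "Passed" means an unadjusted P under 0.05, the study's threshold. The test was checked on simulated data with known changes in sEV-HYP. A simulated log2 change of 0.5 passed for 31.9% of changed genes against sEV-NORM and 27.7% against sEV-CTRL. After adjustment 0% of these genes had a P under 0.05. Of unchanged genes 4.87% and 4.69% passed. Chains with an unadjusted P under 0.05, the highest chain of each class and their partners are named with all values; other genes were named after their values were seen. The members and lists were chosen with earlier results of these data known. No pair of libraries was near-identical.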

Additional observations from a re-analysis of the deposited data

How the results depend on the processing

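In sEV-NORM against sEV-CTRL 1 chain passed the threshold, beside 1.62% of all genes. With no filter on low counts 2 passed (1.96% of all genes). When 10 counts were required in every library 0 passed (1.46%), as Col20a1 was then not tested. With 1 sEV-CTRL or sEV-NORM library left out 1 to 4 passed, beside 1.26% to 5.75% of all genes. In sEV-HYP against sEV-NORM 1 chain passed (3.95% of all genes). On only the 2 groups compared 2 passed, with DESeq2 (4.54%) or edgeR (6.07%). With 1 sEV-CTRL or sEV-NORM library left out 0 to 2 passed, beside 2.84% to 5.57% of all genes. In sEV-HYP against sEV-CTRL 5 chains passed (2.45% of all genes). On only these groups 3 passed with DESeq2 (1.5%) and 2 with edgeR (1.74%). With 10 counts in every library 3 passed (2.32%). With 1 sEV-CTRL or sEV-NORM library left out 1 to 9 passed, beside 1.92% to 8.32% of all genes. Col5a1 in this last comparison passed in 4 of 16 settings, Col5a2 in 10, Col3a1 in 11, and Col20a1 in 12 of 15. Col20a1 in sEV-NORM against sEV-CTRL passed in all 15 settings where it was tested, with unadjusted P values of 0.00173 to 0.0118. The median log2 fold changes ranged from -0.15 to 0.20, from -0.028 to 0.30 and from -0.037 to 0.40 in the 3 comparisons with 1 library left out. Where only 1 sEV-HYP library was left, it was assumed to vary like the other groups.

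After group means were removed, correlations of same-numbered libraries ran from -0.416 to 0.369. Those of differently numbered libraries ran from -0.369 to 0.467, so no pairing by replicate number was seen. Deviations from the mean of so few libraries depend on each other, so these values cannot exclude pairing. With a replicate block 3 chains passed in sEV-HYP against sEV-NORM (Col18a1, Col5a1 and Col6a2), beside 4.31% of all genes. In sEV-HYP against sEV-CTRL 4 passed, beside 2.25% of all genes. Col20a1 no longer did there (log2 fold change -1.34, unadjusted P = 0.066 by edgeR). In sEV-NORM against sEV-CTRL 1 passed, which was Col20a1, beside 1.41% of all genes.

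The use of the longest transcript, chosen after seeing the data, gave median ratios of 0.427 for Col1a1 to Col1a2, 2.82 for Col4a1 to Col4a2, 0.266 for Col5a1 to Col5a2, 2.11 for Col6a1 to Col6a2 and 1.15 for Col6a3 to Col6a2, against 0.895, 2.57, 0.381, 3.36 and 1.65 by all exons. Length is all that differs between these values. With 1 library left out, also chosen after seeing the data, r ran from -0.41 to 0.23 for Col1a1 with Col4a1, from -0.29 to 0.57 with Col6a1 and from -0.23 to 0.48 with Serpinh1. It ran from 0.76 to 0.92 for Col1a1 with Col5a1 and from 0.64 to 0.86 for Col6a1 with Col6a2, and each P rose above 0.05 without 1 library.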
